A study of Chlorocebus sabaeus with 18 samples.

Results

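The 7 genes described here have 1 or more long exon bins whose part of the gene's reads differed between the groups: EIF4E2, PPAT, BCCIP, NUP58, ATP5G3, DDAH1 and GLB1. They are 7 of 19997 genes or groups of overlapping genes, and hold 214 of 603668 exon bins, of which 210 have a position. An exon bin is a piece of an annotated exon, cut wherever any annotated transcript of the gene has an exon boundary. The genes were picked because these bins had differed in the authors' deposited DEXSeq tables, which compare the relative use of each bin between groups. The values of those comparisons are therefore given as a description, with no test. A bin is called switched here if it has at least 100 bases, a mean normalised count of 50 or more in its highest group, and, in at least 1 of the 6 deposited tables, an adjusted p under 0.05 with a log2 change of at least 1 in either direction. The rule left 11 bins, at most 3 per gene.

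All libraries were made from COS-7, a fibroblast-like line derived from green monkey kidney that expresses the SV40 large T antigen. The groups are controls with no agent named (CTL), transfection of 60 CGG repeats from FMR1 (CGG), overexpression of TRA2A (TRA_OE, whose titles and columns read GFP_TRA), knockdown of TRA2A (siTRA), and the repeat together with that knockdown (CGG_siTRA). Each has 3 libraries with counts, lettered a, b and c. Samples with the repeat plus overexpression (CGG_TRA) enter only the authors' splicing event tables. The labels name neither an empty vector nor a control siRNA, so in a comparison with CTL an agent and transfection itself cannot be told apart. In CGG_siTRA against CGG and in TRA_OE against siTRA, loss of TRA2A and the knockdown agent itself cannot be told apart either. The labels do not say whether replicates are separate cultures, so spreads and p-values may be technical.

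Totals over exon bins ran from 121142115 to 203957869 per library. TRA2A, the manipulated gene, had normalised counts of 16912 to 17234 in the CTL libraries, 15675 to 17032 in CGG, 187106 to 221793 in TRA_OE, 3117 to 4916 in siTRA and 4020 to 4408 in CGG_siTRA. Among replicates, library siTRA b stood apart: its counts gave a mean chi-square per bin of 16.2 against siTRA a and 20.1 against siTRA c, while siTRA a and c gave 4.04. CGG_siTRA a and c also differed (15.7). All other pairs lay between 2.14 and 8.33. With each library left out in turn, 29 of the 34 shares below that were at least 2-fold from CTL stayed so. The other 5 were those of BCCIP E013 in siTRA and CGG_siTRA, DDAH1 E027 and E028 in TRA_OE, and GLB1 E047 in CGG_siTRA, with a smallest log2 change of 0.88 in size.

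A messenger RNA can gain or lose a long stretch in several textbook ways. An intron can stay in the transcript, a transcript can end early at a poly(A) site inside an intron, or it can start at another promoter. TRA2A belongs to the serine and arginine rich splicing regulators, which bind purine-rich exonic enhancers and influence which exons are kept. Counts per bin show where reads fall, but not which of these forms the reads come from, nor whether the RNA was fully spliced.

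The 11 bins were 100 to 4654 bases long, and 0 were the first or last bin of their gene. Of the 44 pairs of a bin and a treated group, 34 had a mean share of the gene at least 2-fold above or below that of CTL. In CGG, 5 bins were at least 2-fold higher and 3 lower, where 0.0834% and 0.0866% of all 93538 bins of this length and level were. In TRA_OE 3 were higher and 2 lower (all bins: 0.0727% and 0.123%), in siTRA 6 and 5 (0.159% and 0.0631%), and in CGG_siTRA 5 and 5 (0.149% and 0.0513%). The bins were chosen on these comparisons, so nothing is read from the gap between the shares. The 4 comparisons share the CTL libraries. Because this is bulk RNA, fewer cells with a transcript and less of it per cell cannot be told apart.

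**Figure D1:**
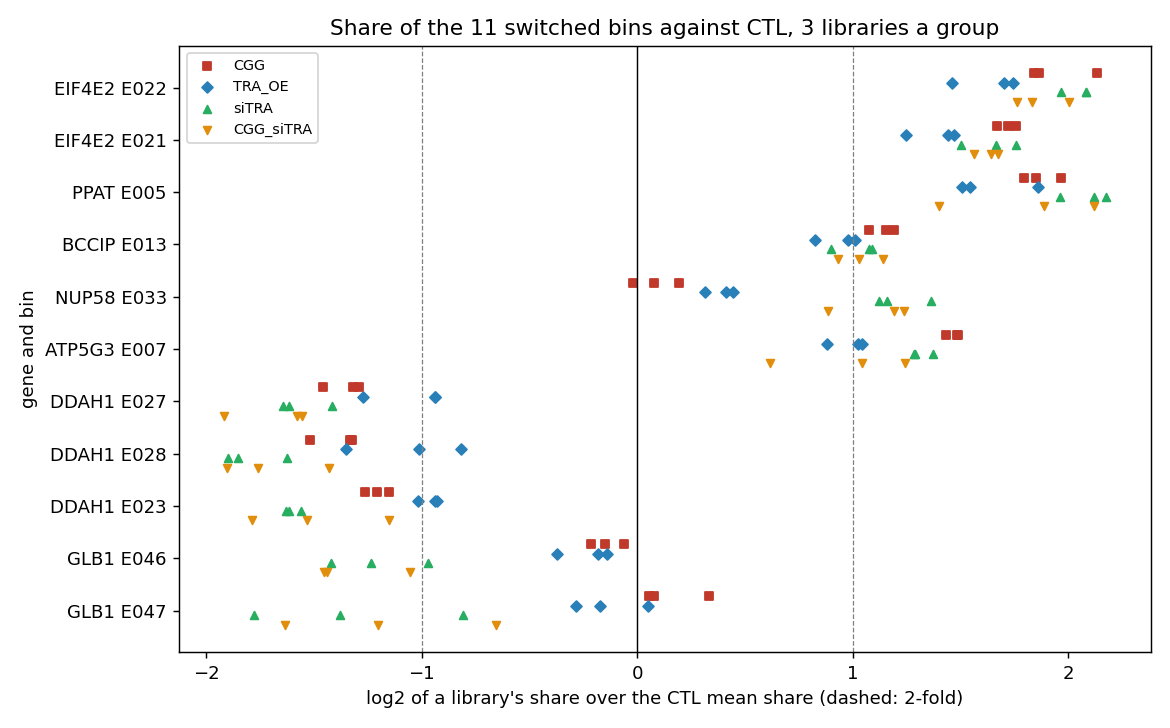
Share of each of the 11 switched bins in its gene, as log2 of each library's share over the mean CTL share (horizontal axis), with 1 row per gene and bin and 1 point per library in the 4 treated groups. The bins of EIF4E2, PPAT, BCCIP and ATP5G3 lie to the right and those of DDAH1 to the left in all 4 groups, while NUP58 passes the dashed 2-fold line on the right, and GLB1 that on the left, by group mean, in siTRA and CGG_siTRA only.

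The bins fell into 2 kinds by group. For EIF4E2, PPAT, BCCIP and ATP5G3 the shares in all libraries of the 4 treated groups were above all CTL libraries, and for DDAH1 they were below. For NUP58 and GLB1 the 2-fold change was seen in the groups with TRA2A knocked down, by group mean, and CGG overlapped CTL in both genes. The bins were chosen on comparisons of these groups, which favours bins whose libraries lie apart from CTL. How many of all bins lie apart from CTL in this way was not counted, so nothing is read from the separation.

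**Figure D2:**
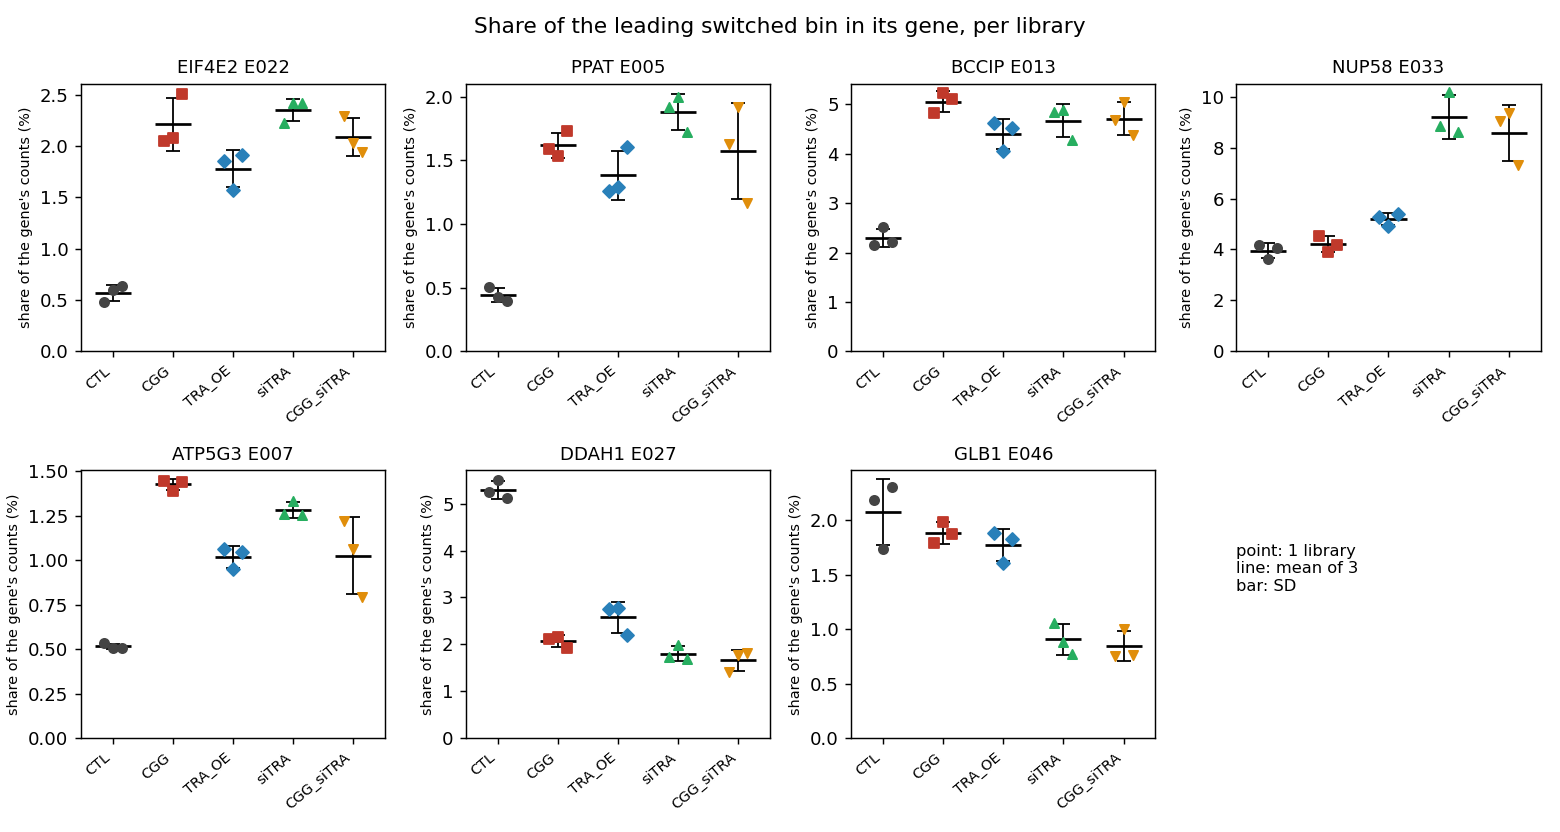
Share of the leading switched bin of each gene, in percent of the gene's normalised counts (vertical axis, from 0), by group (horizontal axis), with 1 point per library, the mean as a line and the SD as a bar. CTL stands apart from the 4 treated groups in EIF4E2, PPAT, BCCIP, ATP5G3 and DDAH1, and the groups siTRA and CGG_siTRA stand apart from the other groups in NUP58 and GLB1.

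EIF4E2 encodes a cap-binding protein related to eIF4E that represses translation of bound messages instead of starting it. The gene (ENSG00000135930.13, chromosome 2, plus strand, 33 bins) had more of its reads in 2 adjoining bins, E021 (232567215 to 232567527, 313 bases) and E022 (232567528 to 232568020, 493 bases). They directly follow the exon bin E020, which ends at 232567214, and stop 924 bases before the next bin, E023. They thus extend an exon into the interval before the next one. In the gene as a whole 11 further bins follow, but the authors' deposited events include an alternative last exon that spans these 2 bins, so whether a transcript ends there is not told by the bins.

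The share of E022 was 0.485%, 0.594% and 0.633% in the CTL libraries and 2.05%, 2.08% and 2.51% in CGG. It was 1.57%, 1.86% and 1.91% in TRA_OE, 2.23%, 2.42% and 2.42% in siTRA, and 1.94%, 2.03% and 2.29% in CGG_siTRA. All treated libraries were above all CTL libraries, TRA_OE was below the other treated groups, and those 3 overlapped. Its mean normalised count was 73.7 ± 10.8 in the controls, 333 ± 37.6 with the repeat and 370.2 ± 29.5 with the knockdown (SD, n = 3), and the share was 3.87, 3.12, 4.13 and 3.66 times CTL in CGG, TRA_OE, siTRA and CGG_siTRA. E021 followed with 3.29, 2.62, 3.13 and 3.09 times. Per kilobase, the mean count of E022 was 2.73% of that of E023 in CTL, 11.05% in CGG, 9.0% in TRA_OE, 11.6% in siTRA and 10.5% in CGG_siTRA.

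The exons beyond E022 kept pace with the gene. The summed count of the 11 bins on its 3′ side was 1.14, 1.12, 1.23 and 1.17 times CTL in CGG, TRA_OE, siTRA and CGG_siTRA, close to the 1.17, 1.18, 1.22 and 1.21 times of the whole gene. The ratio of the exons on the 3′ side to those on the 5′ side was 0.381 ± 0.00933 in CTL, and all 4 treated groups overlapped that range. Against the long bin near the 3′ end, E032 (2310 bases), E021 and E022 together had 0.201 ± 0.0228 times its count in CTL and 0.696 ± 0.0833 times in CGG (SD, n = 3).

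BCCIP encodes a nuclear protein that binds BRCA2 and the cell cycle inhibitor CDKN1A. The switched bin of the gene (ENSG00000107949.16, chromosome 10, plus strand, 14 bins) is E013 (125841331 to 125842805, 1475 bases). It is next to last: it abuts the short bin E012 on its 5′ side, and the last bin, E014, begins 10319 bases further on. Its position is thus that of an exon end upstream of the outermost one.

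E013 held 2.16%, 2.21% and 2.51% of the gene in CTL and 4.83%, 5.10% and 5.23% in CGG. The values were 4.06%, 4.51% and 4.62% in TRA_OE, 4.29%, 4.84% and 4.88% in siTRA, and 4.38%, 4.69% and 5.06% in CGG_siTRA. CTL was below all treated libraries, and the treated groups next to each other in order overlapped. The share was 2.20, 1.92, 2.04 and 2.05 times CTL in the same order of groups. The count of E013 was 303.6 ± 38.6 in CTL and 800.5 ± 25.1 in CGG (SD, n = 3).

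The last bin of BCCIP, E014, stayed closer to its level in CTL. Its mean counts were 309.8 in CTL, 343.2 in CGG, 390.3 in TRA_OE, 315.1 in siTRA and 271.9 in CGG_siTRA. The count of E013 over that of E014 was 0.978 ± 0.0787 in CTL, 2.34 ± 0.138 in CGG, 1.99 ± 0.121 in TRA_OE, 2.23 ± 0.0928 with the knockdown and 2.16 ± 0.203 with both (SD, n = 3). In CTL both bins thus had similar counts, and the ratios of all treated libraries lay above those of CTL. The bin E012 just before them had 1.33, 1.51, 1.22 and 1.04 times its CTL count, against 1.20, 1.34, 1.14 and 0.945 times for the whole gene.

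**Figure D3:**
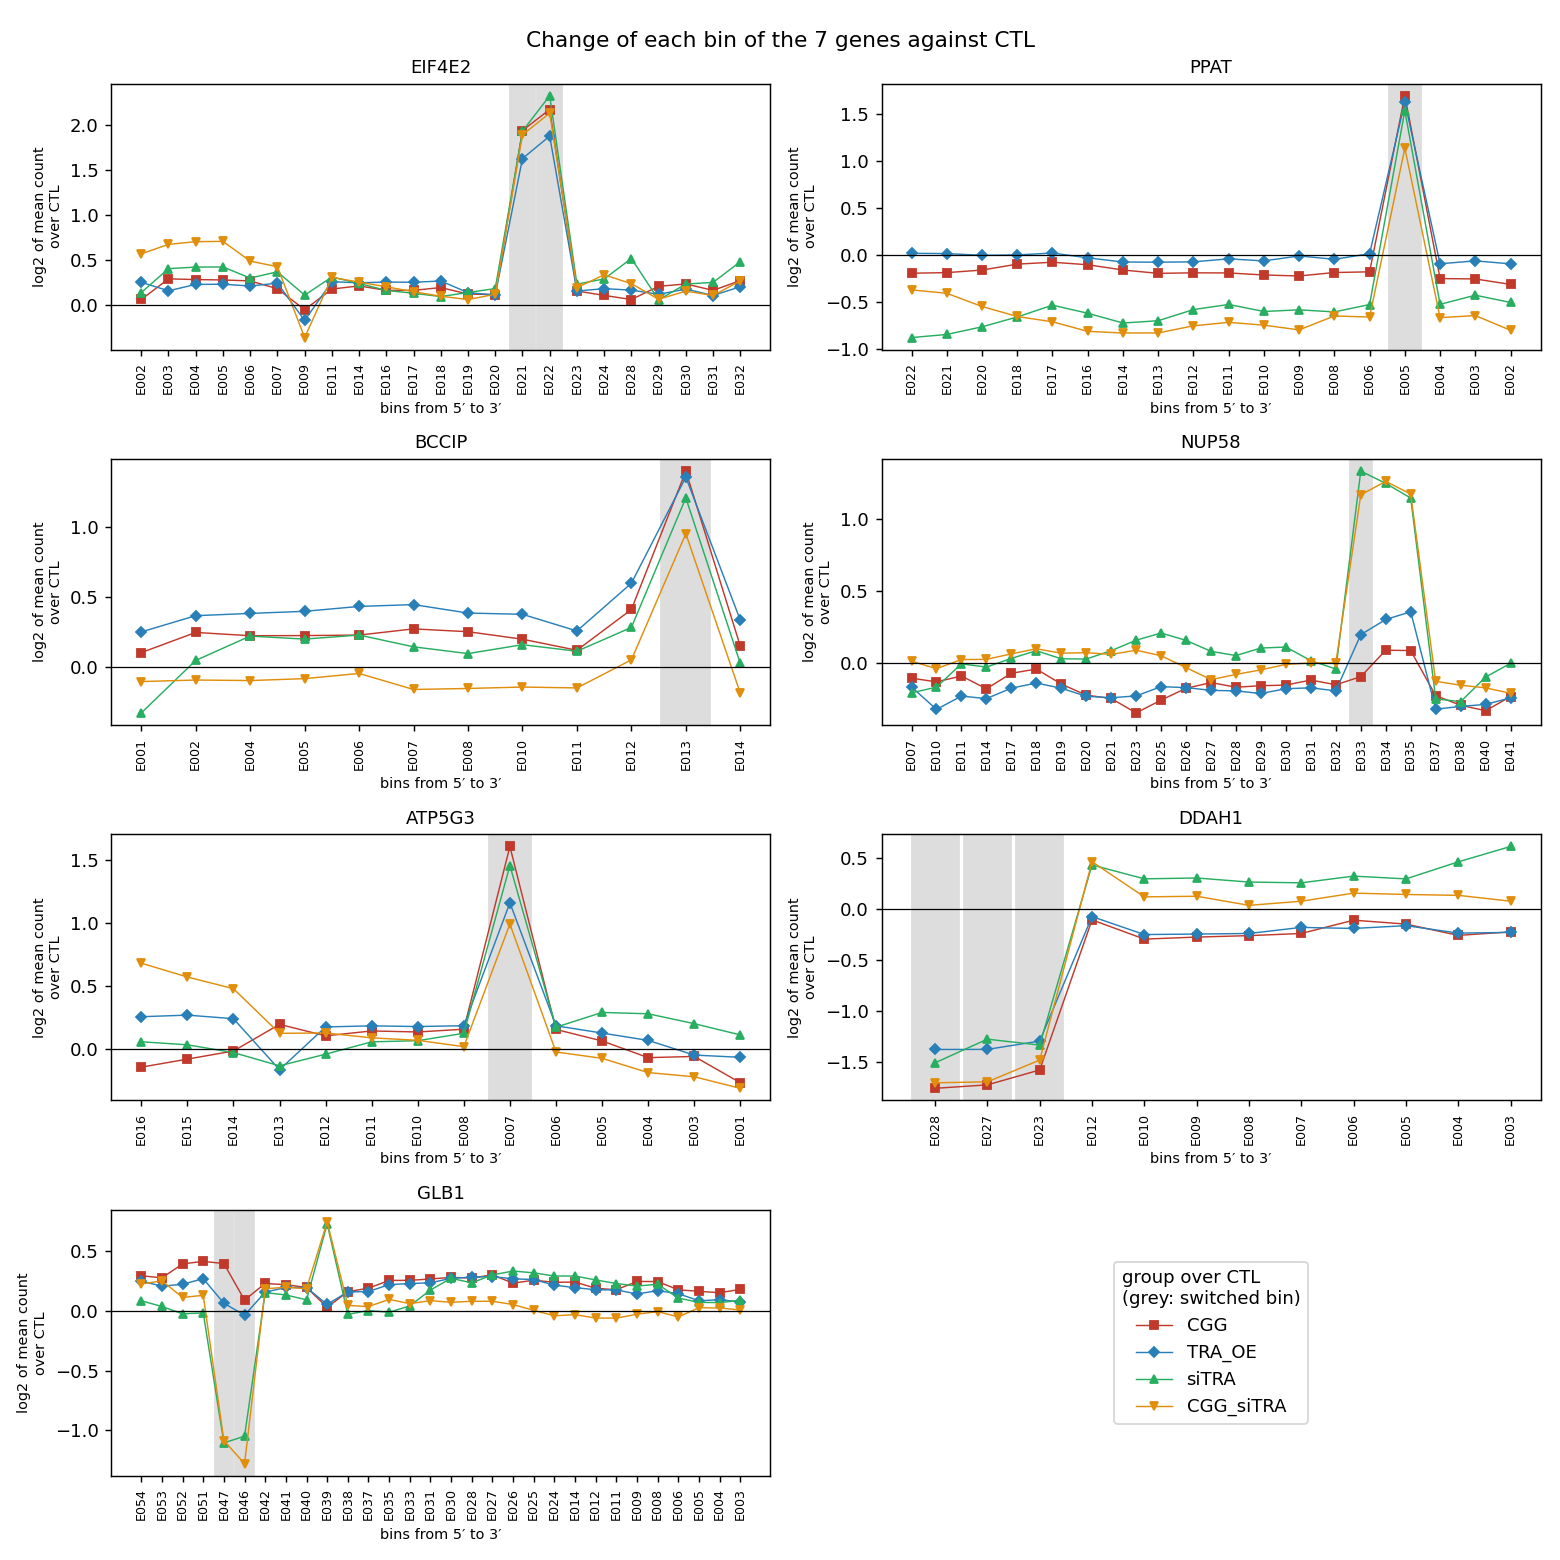
Change of each bin of the 7 genes against CTL, as log2 of the group's mean normalised count over the CTL mean (vertical axis), for bins with a mean of 50 or more in the highest group, in order from 5′ to 3′ (horizontal axis), with the switched bins in grey. The switched bins of PPAT, BCCIP and ATP5G3, and the adjoining switched bins of EIF4E2 and of GLB1 taken as a block, differ from the bins on both sides. NUP58 E033 does so together with E034 and E035, and DDAH1 shows a step between E023 and E012. The outermost 5′ bins of EIF4E2 and ATP5G3 also lie higher in CGG_siTRA, and so does the 1-base bin E039 of GLB1 in siTRA and CGG_siTRA.

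PPAT encodes the amidotransferase that catalyses the first committed step of purine synthesis. Its switched bin, E005 (chromosome 4, 56399401 to 56400783, minus strand, 1383 bases, 18th of 22 bins of ENSG00000128059.8 from the 5′ end), fills the whole interval between the exon bins E006 and E004. It is thus an internal bin at the place of an intron. In CTL it had 0.823% of the count of those 2 bins per kilobase.

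The share of E005 was 0.394%, 0.428% and 0.503% in CTL and 1.53%, 1.59% and 1.73% in CGG. It was 1.26%, 1.29% and 1.61% in TRA_OE, 1.72%, 1.92% and 2.0% in siTRA, and 1.17%, 1.63% and 1.92% in CGG_siTRA. All 12 treated libraries were above CTL, with a wide spread in CGG_siTRA, and treated groups next to each other in order overlapped. The share was 3.66, 3.14, 4.26 and 3.56 times CTL, and the level per kilobase reached 3.07%, 2.60%, 3.42% and 2.85% of its neighbours.

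In CGG and in the knockdown groups the gene as a whole was lower at the same time. The normalised total of PPAT was 18531 ± 526 in CTL, 16293 ± 556 in CGG, 18082 ± 916 in TRA_OE, 12535 ± 897 with the knockdown and 11429 ± 331 with both (SD, n = 3). The ranges of CGG, siTRA and CGG_siTRA lay below that of CTL, at 0.879, 0.676 and 0.617 times its mean. In the 2 knockdown groups the count of E005 itself was still 2.89 and 2.19 times CTL, while E006 had 0.695 and 0.634 times and E004 0.696 and 0.631 times.

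ATP5G3 encodes subunit c of the mitochondrial ATP synthase, which forms the ring of the rotor in the membrane. It is counted together with an overlapping gene (ENSG00000200121.2+ENSG00000154518.9, chromosome 2, minus strand, 17 bins), and the table does not tell which of them a bin belongs to. The switched bin E007 (175178403 to 175179056, 654 bases) fills the interval between E008 and E006, which were the bins of the gene with the highest counts. In the authors' deposited table of CGG against CTL it had the smallest adjusted p of all bins, 1.36e-122, with a log2 change of 1.46.

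E007 held 0.507%, 0.507% and 0.532% of the gene in CTL and 1.39%, 1.44% and 1.45% in CGG. The values were 0.949%, 1.05% and 1.06% in TRA_OE, 1.26%, 1.26% and 1.33% in siTRA, and 0.792%, 1.06% and 1.22% in CGG_siTRA. CGG, siTRA and the pair of TRA_OE and CGG_siTRA formed separate steps, and all libraries were above CTL. The share was 2.77, 1.98, 2.49 and 1.99 times CTL. Its neighbours E006 and E008 had 1.11 and 1.12 times their CTL counts in CGG, where the count of E007 had 3.05 times.

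In ATP5G3, the knockdown group lay on opposite sides of its counterpart with and without the repeat. Without it, siTRA was above CTL in all libraries, at 2.49 times. With it, CGG_siTRA was below CGG in all libraries, at 0.719 times. The authors' deposited table of CGG_siTRA against CGG gives the bin a log2 change of -0.51 with an adjusted p of 0.0805. By group mean, EIF4E2 E022 and E021, PPAT E005 and BCCIP E013 lay the same way. Their CGG_siTRA shares were 0.944, 0.938, 0.972 and 0.931 times CGG, with overlapping libraries.

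NUP58 encodes a phenylalanine-glycine repeat protein of the central channel of the nuclear pore, where it pairs with NUP62 and NUP54. In this gene (ENSG00000139496.15, chromosome 13, plus strand, 42 bins, 41 with a position) the switched bin E033 (25331559 to 25336212) is the longest of all 11, with 4654 bases. It abuts the exon bin E032 on its 5′ side and is followed without a gap by E034, E035 and E036. The next bin, E037, begins 591 bases after E036. E033 is thus internal and covers most of what would be an intron between E032 and E037.

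The share of E033 was 3.64%, 4.05% and 4.18% in CTL, 3.91%, 4.18% and 4.52% in CGG and 4.92%, 5.27% and 5.38% in TRA_OE. It was 8.61%, 8.83% and 10.2% in siTRA and 7.31%, 9.04% and 9.35% in CGG_siTRA. CGG overlapped CTL, TRA_OE lay slightly above both, and the 6 knockdown libraries were above the other 9. Shares were 1.06, 1.31, 2.33 and 2.17 times CTL in CGG, TRA_OE, siTRA and CGG_siTRA. The overexpression and the knockdown of TRA2A thus went with shares on the same side of CTL.

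Counts of E033 were 774.3 ± 48.7 in the controls, 1955 ± 294 with the knockdown and 1744 ± 302 with both (SD, n = 3). The short bins after it followed: E034 (97 bases) had 2.38 and 2.40 times its CTL count and E035 (31 bases) 2.22 and 2.26 times in siTRA and CGG_siTRA. Exons on the 3′ side of this block were lower against those on the 5′ side. The ratio was 0.352 ± 0.0183 in CTL, 0.309 ± 0.0264 in siTRA and 0.310 ± 0.0184 in CGG_siTRA, with no overlap with CTL. It was also below CTL in CGG (0.326 ± 0.00617), where the share of E033 overlapped CTL. For the nearest exons alone, E037 and E038 over E031 and E032, siTRA was below CTL (0.742 ± 0.0397 against 0.882 ± 0.0537) and CGG_siTRA overlapped it (0.801 ± 0.0592).

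GLB1 encodes the lysosomal beta-galactosidase. It is counted with an overlapping gene (ENSG00000188167.8+ENSG00000170266.15, chromosome 3, minus strand, 57 bins, 54 with a position), and the table does not say which gene owns a bin. The bins E047 (33093789 to 33094303, 515 bases) and E046 (33090425 to 33093788, 3364 bases) adjoin each other near the 5′ end, 11th and 12th of the 54. They form an isolated block, 2415 bases from the nearest bin on the 5′ side. On the 3′ side only the 4-base bin E045 adjoins, and a gap of 17705 bases follows. Whether the block belongs to GLB1 or to the overlapping gene was not tested. If it belongs to the overlapping gene, its share follows the level of that gene relative to GLB1. A lower share would then not be a switch of a GLB1 exon, so the values below are shares of the group of overlapping genes.

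E046 held 1.73%, 2.19% and 2.30% in CTL, 1.79%, 1.87% and 1.99% in CGG and 1.60%, 1.83% and 1.89% in TRA_OE. It held 0.774%, 0.882% and 1.06% in siTRA and 0.757%, 0.766% and 1.0% in CGG_siTRA. The first 3 groups overlapped, and the 6 knockdown libraries were below all of them. Shares were 0.436 and 0.406 times CTL in siTRA and CGG_siTRA for E046, and 0.416 and 0.464 times for E047. Within repeat-transfected cells, CGG_siTRA had 0.447 times the share of CGG for E046 and 0.414 times for E047.

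The exons with higher counts that were used on both sides of this block overlapped CTL in both knockdown groups. The low bin E048, next on the 5′ side (74 bases, highest group mean 16.9), was not among them. Its largest deposited log2 change was 1.82 in size and its smallest deposited adjusted p was 0.0251 by the authors' DEXSeq test. The outer bins E051 and E052 together had a mean count of 267.1 ± 12.8 in CTL, 263.7 ± 82.1 with the knockdown and 291 ± 47.3 with both (SD, n = 3), and E042 on the 3′ side had 1.11 and 1.14 times its CTL count. The whole gene was at 1.17, 1.14, 1.11 and 1.02 times CTL. The summed count of the block itself was 0.479 and 0.427 times CTL in siTRA and CGG_siTRA. Relative to the count of E042, the block had 0.967 ± 0.192 in CTL, 0.415 ± 0.0606 in siTRA and 0.359 ± 0.0436 in CGG_siTRA. If the block belongs to the overlapping gene, this ratio compares the levels of different genes.

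DDAH1 encodes the hydrolase of asymmetric dimethylarginine, an inhibitor of nitric oxide synthases. It is counted with an overlapping gene (ENSG00000153904.18+ENSG00000282057.1, chromosome 1, minus strand, 29 bins), again with no assignment of bins. Its 3 switched bins lie at the 5′ end. E028 (85578151 to 85578250, 100 bases) and E027 (85577984 to 85578150, 167 bases) adjoin each other and follow the outermost bin E029. E023 (85496166 to 85496281, 116 bases) is a separate exon bin 25386 bases from its neighbour on the 5′ side.

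E027 held 5.12%, 5.25% and 5.50% of the gene in CTL and 1.93%, 2.12% and 2.17% in CGG. The values were 2.19%, 2.76% and 2.77% in TRA_OE, 1.70%, 1.73% and 1.98% in siTRA, and 1.40%, 1.77% and 1.80% in CGG_siTRA. Every treated library was below all CTL libraries, and TRA_OE was nearest to CTL. The share was 0.391, 0.486, 0.340 and 0.313 times CTL for E027, 0.382, 0.485, 0.290 and 0.311 times for E028, and 0.433, 0.514, 0.330 and 0.362 times for E023.

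The next bin with a mean above 50 was not lower. That bin, E012 (85464743 to 85465140, 398 bases), lies 31025 bases from E023 and had 0.931, 0.952, 1.35 and 1.38 times its CTL count. All 17 bins on the 5′ side of E012 together had 1189 ± 49.6 counts in the controls, 367.8 ± 17.2 with the repeat, 466.4 ± 48.9 with overexpression, 482.5 ± 94.1 with the knockdown and 404 ± 19.2 with both (SD, n = 3). The 11 bins on its 3′ side had 0.847, 0.856, 1.34 and 1.08 times CTL. Most of the sum over the 17 bins comes from the 3 switched bins, with CTL means of 450.7 (E027), 259.1 (E028) and 286.5 (E023). These were chosen for their change, so nothing is read from the lower sum of the outer part in all 4 groups. The 11 bins on the 3′ side of E012 were lower in CGG and TRA_OE and higher in siTRA and CGG_siTRA. These sums over bins, like those of the other genes, were chosen after the values were seen.

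**Figure D4:**
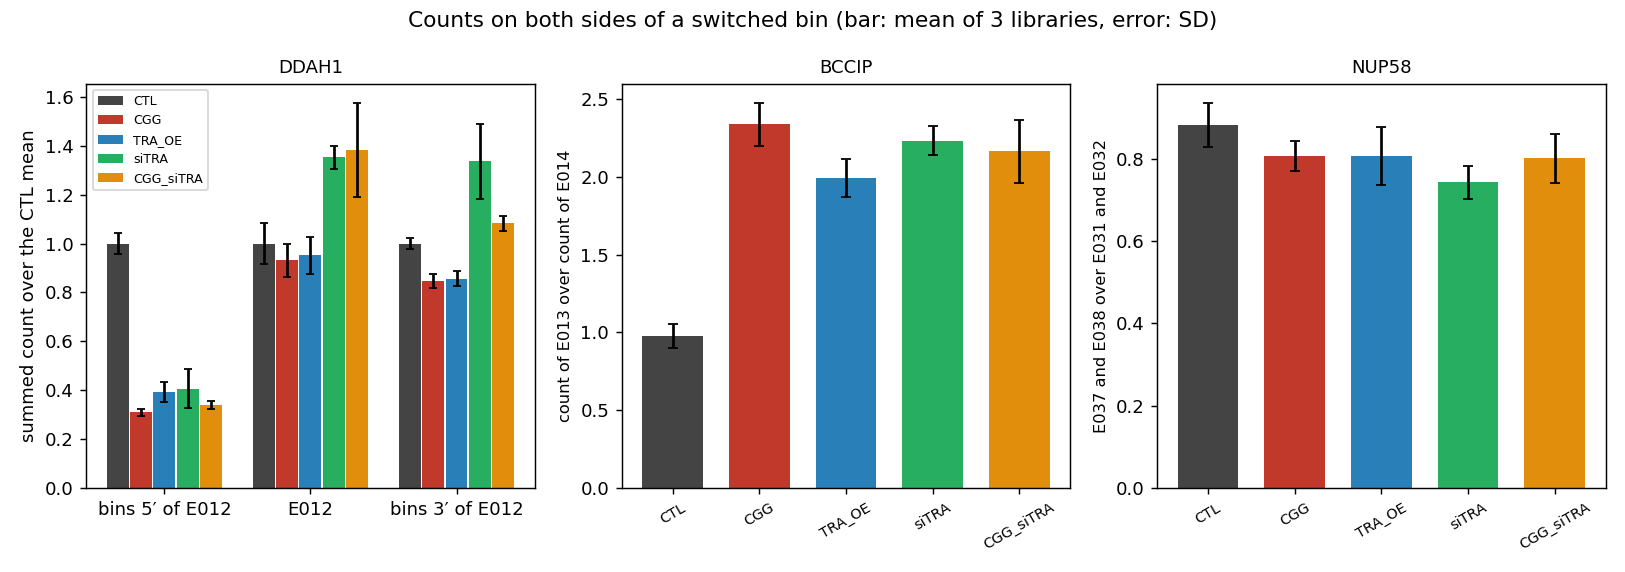
Counts on both sides of a switched bin, by group, with the mean of 3 libraries as a bar and the SD as an error: summed counts of 3 parts of DDAH1 over the CTL mean (left), the count of BCCIP E013 over that of E014 (middle) and the count of NUP58 E037 and E038 over E031 and E032 (right). The outer part of DDAH1, which is mostly its switched bins, is at 0.309 to 0.406 times CTL in the treated groups. The BCCIP ratio goes from 0.978 to between 1.99 and 2.34, and the NUP58 ratio is 0.742 in siTRA against 0.882 in CTL.

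Most bins at the place of an intron stayed near CTL. Across all genes, 1683 low bins of at least 100 bases with a mean of 50 or more in the highest group adjoined a bin on each side and had less than 25% of the count per kilobase of either. PPAT E005, NUP58 E033 and ATP5G3 E007 are 3 of them. Their median share was 0.985, 0.983, 1.01 and 1.01 times CTL in CGG, TRA_OE, siTRA and CGG_siTRA. At least 2-fold higher were 14, 7, 24 and 14 of the 1683, and at least 2-fold lower 14, 17, 3 and 1. Very short neighbours have high counts per kilobase, since any read that touches them is counted. When both neighbours had to have at least 50 bases, 397 bins remained, the same 3 among them. Their median share was 0.981, 0.971, 1.03 and 1.05 times CTL, with 7, 4, 12 and 6 at least 2-fold higher and 2, 2, 1 and 1 lower.

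For 2 of the switched bins the most similar bin lay in another of these genes. Among 198822 bins of other genes, the bin whose centred log2 shares over the 15 libraries differed least from those of EIF4E2 E022 was PPAT E005, with a root mean square difference of 0.21 where E022 itself varied by 0.77. For ATP5G3 E007 it was BCCIP E013 (0.20, own variation 0.52). For BCCIP E013 and EIF4E2 E021 it was a bin on chromosome 16, 83965062 to 83966331, with mean counts of 169 in CTL, 915.5 in CGG, 860.1 in TRA_OE, 709.4 in siTRA and 793.4 in CGG_siTRA. For NUP58 E033 it was one on chromosome 2, 55025086 to 55027206 (233 in CTL, 704.4 in siTRA, 568.8 in CGG_siTRA). For GLB1 E046 it was another there, 53852913 to 53854865 (704.3 in CTL, 278.3 in siTRA, 280.5 in CGG_siTRA). These are likenesses within the same 15 libraries that served to choose the bins, with no test. Bins chosen for a change from the shared CTL can resemble each other through that choice, so nothing is read from the likeness between the genes. The likeness is between shares, whereas the values given for the bins named by position are counts, which also follow the level of their gene. The bins most like PPAT E005, GLB1 E047 and those of DDAH1 are not listed here.

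In the authors' deposited tables, 5 of the 11 bins were called higher and 3 lower in CGG against CTL, where 0.955% and 1.04% of all bins were. In TRA_OE against CTL they were 6 and 3 (all bins: 0.465% and 0.86%), in siTRA against CTL 6 and 5 (0.937% and 0.89%), and in CGG_siTRA against CTL 6 and 5 (2.34% and 1.53%). In CGG_siTRA against CGG, 1 bin (NUP58 E033) was called higher and 2 (GLB1 E046 and E047) lower (1.72% and 1.62%). In TRA_OE against siTRA, 5 were called higher and 3 lower (0.224% and 0.371%). All of these served to choose the bins. Near the limits, DDAH1 E028 with exactly 100 bases and GLB1 E047 with a highest group mean of 129.3 were inside. NUP58 E034 with 97 bases and DDAH1 E029 with a highest group mean of 44.3 were outside, 2 of 9 bins with such a deposited change that were too short or too low.

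No deposited DEXSeq table covers 2 further comparisons, which were tested: the repeat against no repeat in knocked-down cells (CGG_siTRA against siTRA), and the repeat against overexpression (CGG against TRA_OE). Their libraries did enter the deposited comparisons that served to choose the bins, so these tests are not independent of that choice. In the first, 0 of the 11 bins passed an adjusted p under 0.05 by edgeR's diffSpliceDGE with Benjamini-Hochberg adjustment over 265486 bins, of which 0.0516% passed. An unadjusted p under 0.05 was reached by 1 of the 11, against 5.31% of all bins. That bin was ATP5G3 E007, with a log2 change in relative use of -0.35 (SE 0.14, adjusted p = 0.725 by edgeR), and all CGG_siTRA libraries were below all siTRA libraries. The changes of the other 10 lay between -0.26 (PPAT E005) and 0.15 (DDAH1 E023). The approximate 95% interval of NUP58 E033 ran from -0.30 to 0.09 and that of GLB1 E046 from -0.40 to 0.16. Changes of 2-fold between the 2 knockdown groups thus lay outside both intervals. The number of calls over all bins rested on single libraries: 137 in all, but 1 without siTRA b, 7 without CGG_siTRA b and 19 without CGG_siTRA c, and 401, 700 and 890 without siTRA a, siTRA c and CGG_siTRA a.

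In CGG against TRA_OE, 0 of the 11 bins passed by edgeR with Benjamini-Hochberg adjustment, and 0.0166% of all bins did (44 calls, 18 to 31 with 1 library left out). An unadjusted p under 0.05 was reached by 5 of the 11, against 1.51% of all bins. The libraries of both groups also served to choose the bins, and EIF4E2 E021 and E022 adjoin each other. Nothing is therefore read from the gap between these shares. ATP5G3 E007 had the largest change, 0.48 (SE 0.14, adjusted p = 1.0 by edgeR), with all 3 CGG libraries above all 3 TRA_OE libraries. The libraries of the 2 groups also lay apart in EIF4E2 E021 and E022, BCCIP E013, NUP58 E033, DDAH1 E023 and E027, and GLB1 E047. How many of all bins lie apart in this way was not counted, so nothing is read from it. When the 6 libraries of the 2 groups were fitted alone, ATP5G3 E007 passed by edgeR (adjusted p = 0.000358), as the only one of the 11. The others with an unadjusted p under 0.05 were EIF4E2 E022 (0.32, SE 0.13), EIF4E2 E021 (0.33, SE 0.13), NUP58 E033 (-0.30, SE 0.10) and DDAH1 E027 (-0.32, SE 0.15).

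**Figure D5:**
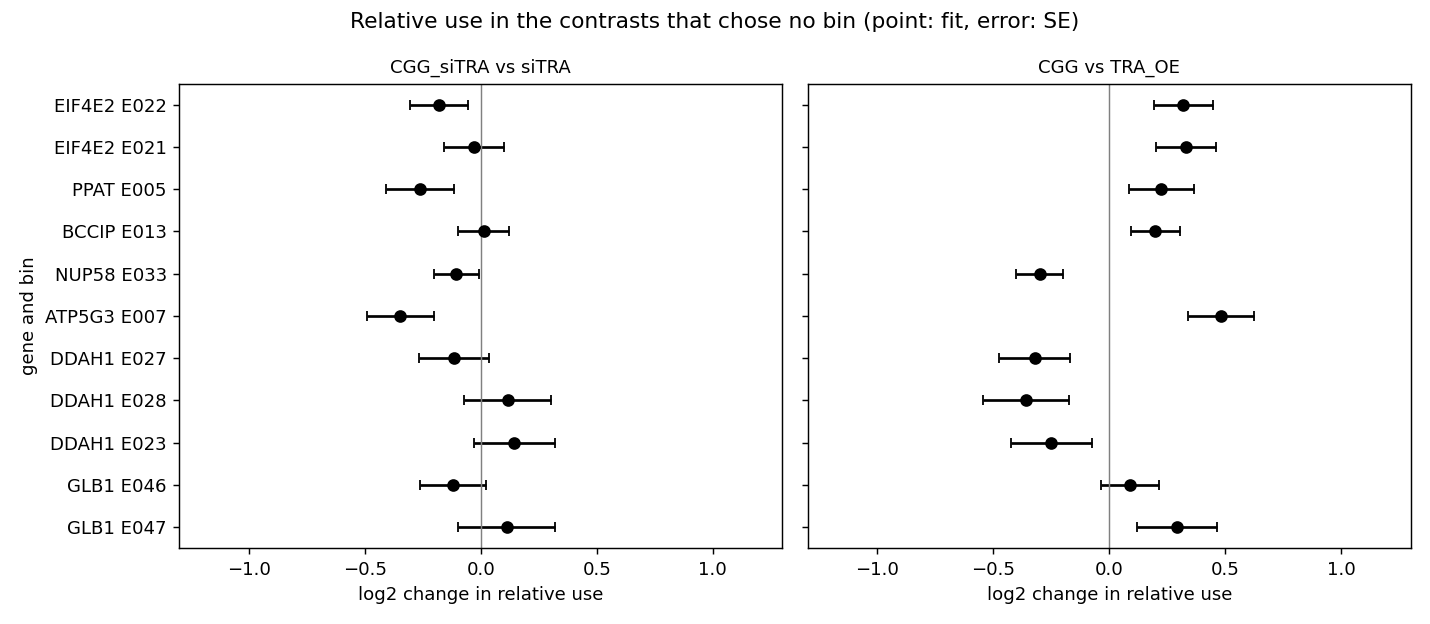
Log2 change in relative use of the 11 switched bins (horizontal axis), with its SE, in CGG_siTRA against siTRA (left) and CGG against TRA_OE (right), from edgeR's diffSpliceDGE over all bins. The points lie between -0.35 and 0.15 on the left and between -0.36 and 0.48 on the right, and 0 of the 11 passed the adjusted threshold in either.

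The totals of the 7 genes were tested in the same 2 comparisons. In CGG_siTRA against siTRA 0 of 7 passed the quasi-likelihood test of edgeR, adjusted by Benjamini-Hochberg over 14969 genes, of which 0.0134% passed. DDAH1 had a log2 change of -0.22 (SE 0.06, adjusted p = 0.135 by edgeR) and BCCIP of -0.20 (SE 0.07, adjusted p = 0.145), the 2 of 7 with an unadjusted p under 0.05, against 18.9% of all genes. DDAH1 passed with DESeq2's Wald test (adjusted p = 0.0276) and BCCIP passed in edgeR without CGG_siTRA a (adjusted p = 0.0425). In CGG against TRA_OE 0 of 7 passed, where 8.43% of all genes did, and 0 reached an unadjusted p under 0.05, against 22.8% of all genes. The log2 changes ran from -0.12 (BCCIP) to 0.07 (GLB1).

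The authors' deposited EventPointer tables, which test annotated splicing events from their own counts, hold 6 events in 3 of the genes: 4 in EIF4E2, 1 in BCCIP and 1 in NUP58. In EIF4E2 an alternative last exon event from 232567214 to 232581802 spans E021 and E022. Its deposited change in percent spliced in was -2.94 percentage points in CGG against CTL, with an unadjusted p of 0.0813 in the authors' deposited table, and its direction is not stated. A complex event from 232567214 to 232580904 also spans both bins. It had -3.85 percentage points in CGG against CTL and 3.07 in TRA_OE against CTL (unadjusted p = 0.310 and 0.233 in the authors' deposited tables). In TRA_OE against CTL the last exon event had -1.12 (unadjusted p = 0.583 in the authors' deposited table). Neither change of the complex event reached an unadjusted p under 0.05 in the authors' deposited tables. Its direction is not stated either, so nothing is read from the signs. The BCCIP alternative last exon event from 125833946 to 125853341, which spans E013, had 3.44 percentage points with an unadjusted p of 0.544 in the authors' deposited table for CGG against CTL. Of the 30 tests of these events in 5 comparisons, 3 had an unadjusted p under 0.05. These were cassette exons away from the switched bins, in NUP58 (p = 0.00356) and EIF4E2 (p = 0.0218) in CGG against CTL and in EIF4E2 in CGG_TRA against CGG (p = 0.0124), each in the authors' deposited table and each with a deposited change of 0. Of all 6311 events, 7.68% and 8.13% reached that level in these 2 comparisons. In CGG_TRA against CGG_siTRA, CGG_siTRA against siTRA and TRA_OE against CTL, 0 of the 6 did, against 8.87%, 6.31% and 8.18% of all events.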

How the data were processed

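RNA of COS-7 cells was made into ribosomal-RNA-depleted libraries. The tools listed are cutadapt 1.14, STAR 2.5.2 and DESeq2, and the build is human GRCh38.p10, per the submitters' processing notes. Monkey reads were thus placed on a human annotation. Whether counting used strand is not given in the sources used here, so reads of an overlapping gene cannot be told apart.

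The authors deposited a signal per bin (counts scaled by 1 factor per library) and 6 DEXSeq tables with raw counts, p-values and log2 changes, per the file headers. Dividing by the factor gave whole reads for 100.0% of values (tolerance 0.1), equal to the deposited counts in all cells listed in both. In the EventPointer tables the authors deposited p-values, a score (z) per event and its change as a fraction (percent spliced in), per the file headers.

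A share is a bin's normalised count over the sum of its gene's bins, in percent. Tests used edgeR 4.0.16 in R 4.3.3, TMM scaling, all 15 libraries in 5 group means, and features with 10 or more normalised counts in at least 3 libraries. The SE is the size of the log2 change over the square root of the F statistic of the test. The 95% intervals are the estimate plus or minus 1.96 SE. They are approximate and can be too narrow, since 1.96 belongs to a normal distribution. limma 3.58.1 and DESeq2 1.42.0 served as alternatives. Both tests were also run on simulated counts with the same dispersion in all libraries. That run does not show how they behave where single libraries stand apart, as siTRA b did here. The minimum length for neighbours of low bins was chosen after seeing the data.

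The members, the bins and all lists were chosen with earlier results of these data known. Named are all 7 genes and the bins that pass the stated limits, at most 3 per gene by smallest deposited adjusted p. The symbols come from the list of members. The files pair no IDs with names, so related genes and cell line markers were not tested. Count columns could not be tied to single sample titles, and letters follow column order.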

Additional observations from a re-analysis of the deposited data

Results flagged for a closer look

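ATP5G3 E007 stood out because the share in siTRA was above that in CTL and the share in CGG_siTRA was below that in CGG, in all 3 libraries of each group. The first was 2.49 times CTL and the second 0.719 times CGG, and the difference between these 2 contrasts was not tested. In siTRA against CTL, the knockdown and transfection itself cannot be told apart, and the share was also 2.77 times CTL in CGG and 1.98 times in TRA_OE. In the authors' deposited table of CGG_siTRA against CGG the bin has an adjusted p of 0.0805. The mean shares of the switched bins of EIF4E2, PPAT and BCCIP lay the same way, but there CGG_siTRA and CGG overlapped.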

How the results depend on the processing

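No paired analysis was possible because the count columns carry no replicate number of the sample titles, so the planned replicate block was not run. Of the 44 pairs of a bin and a group, 34 were at least 2-fold from CTL, and this count was 36 with the adjoining bins or the bins that were not switched as the base, and 32 to 35 with 1 library left out. The share of GLB1 E047 in TRA_OE, not 2-fold from CTL, changed sign, with a log2 change from -0.28 to 0.10 with 1 library left out. The number of member bins called in CGG against TRA_OE was 0 and became 1 (ATP5G3 E007) with the 2 groups alone. The number of gene totals called in CGG_siTRA against siTRA was 0 and became 1 with DESeq2's Wald test, and ran from 0 to 1 with 1 library left out.

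Calls over all bins in CGG_siTRA against siTRA were 137, but 70 with no filter, 1 with the 2 groups alone, and 4587 and 2994 with limma's diffSplice at pseudocounts of 1 and 5. In CGG against TRA_OE they were 44, but 170, 1407 and 637 in the last 3 of these. Calls of genes in CGG_siTRA against siTRA were 2, but 540 with DESeq2 and 599 without CGG_siTRA a, and 8 without CGG_siTRA c. In CGG against TRA_OE they were 1262, but 2363 with the 2 groups alone and 622 to 809 with 1 library left out. Fits of bins without a library kept the dispersion trend of the full fit.

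Log2 changes close to 0 and not called turned sign as follows, and the cause was not tested. In CGG_siTRA against siTRA, BCCIP E013 was at -0.091 and -0.089 with limma at pseudocounts of 1 and 5, and DDAH1 E028 at -0.0065 with limma at 1. With 1 library left out, the change ran from -0.086 to 0.027 for EIF4E2 E021, from -0.048 to 0.060 for BCCIP E013, from -0.034 to 0.21 for DDAH1 E028 and from -0.039 to 0.28 for DDAH1 E023. It ran from -0.25 to 0.024 for GLB1 E046 and from -0.15 to 0.42 for GLB1 E047. The total of NUP58 was at -0.0029 with DESeq2's size factors and -0.0030 with its Wald test, and ran from -0.079 to 0.049 with 1 library left out, and that of EIF4E2 from -0.025 to 0.096. In CGG against TRA_OE, the total of ATP5G3 was at -0.0034 without the switched bins and ran from -0.012 to 0.027 with 1 library left out. That of DDAH1 was at 0.00054 with DESeq2's size factors and with its Wald test, 0.0034 with no filter, 0.016 without the switched bins and 0.015 with the 2 groups alone, and ran from -0.015 to 0.025 with 1 library left out.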
